A study of Mus musculus with 2 samples.

Results

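Fos, Fosb, Jun, Junb, Jund, Egr1, Atf3, Ier2, Dusp1 and Hspa1a are early response and stress genes, and their levels were described across the cells of the adult mouse thymus. They make up 10 of the 32285 gene rows of the library made in 2021, taken by symbol. Each symbol matched 1 row. The cells came from the thymus of adult C57BL/6 mice without any treatment named in the labels. The organ was dissociated with an enzyme kit on a mechanical dissociator, and cells carrying CD64, an Fc receptor of macrophages and related cells, were sorted by flow cytometry. Their RNA was counted by droplet single-cell sequencing (10x Genomics Chromium), which tags each captured molecule with a unique molecular identifier (UMI). A second library, from 2024, gave depth only (2815 barcodes, median 5312 UMIs), since its gene rows carry no names in the files used here.

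Immediate early genes are switched on within minutes of a signal, without the need for new protein, and their transcripts are short-lived. Growth factors, cytokines, calcium, heat, shear and the loss of tissue contact can all set them off through MAP kinases. Cutting a tissue apart with warm enzymes is a known trigger in many cell types, and the same genes are also used by macrophages and granulocytes in the living animal. The labels name no sample taken without digestion or sorting. A response to the preparation and a state that the cells had in the animal therefore cannot be told apart in these data.

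Of 3214 barcodes, 3188 passed the cell filter (no fewer than 500 UMIs and 300 genes, mitochondrial UMIs up to 10%). After removal of 3 called doublets, 3185 cells remained, with a median of 2169 UMIs and a median mitochondrial share of 0.788%. They formed 15 clusters, 12 of which held at least 50 cells. Clusters were built without the 10 genes and without other immediate early, phosphatase and heat shock genes, and each is called by the class of its raised markers and its 2 leading genes. Macrophage-like clusters held 366 cells (11.5%), so most sorted cells did not carry the marker set of the labelled cell type. All gene-level values come from 1 library, so there is no replicate check and no test. Levels are UMIs per 1000000 UMIs of the summed cells of a cluster (CPM), with exact Poisson 95% intervals that cover counting error only.

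The promoters are shown first because members with a shared early response are read from short regulatory sequences near the start site. RefSeq promoters of 300 bases (250 before to 50 after the start, assembly GRCm38.p6) matched 8 of the 10 genes, all but Egr1 and Ier2. The sequences are printed 5′ to 3′ on the strand of the gene, for the most abundant member (Fos), the most abundant Jun family member (Junb) and the member with the full cAMP response element (Dusp1). Capitals mark TGACG (the core of the cAMP response element), the full element TGACGTCA and the TATA box TATAAA. The windows are chr12:85473640-85473939 on the plus strand, chr8:84978699-84978998 on the minus strand and chr17:26508423-26508722 on the minus strand.
Fos: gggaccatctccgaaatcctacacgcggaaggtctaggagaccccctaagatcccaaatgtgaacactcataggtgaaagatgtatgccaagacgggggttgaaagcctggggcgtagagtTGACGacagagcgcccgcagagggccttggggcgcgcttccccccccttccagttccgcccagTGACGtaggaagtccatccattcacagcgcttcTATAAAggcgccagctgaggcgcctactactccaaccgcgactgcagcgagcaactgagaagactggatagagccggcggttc
Junb: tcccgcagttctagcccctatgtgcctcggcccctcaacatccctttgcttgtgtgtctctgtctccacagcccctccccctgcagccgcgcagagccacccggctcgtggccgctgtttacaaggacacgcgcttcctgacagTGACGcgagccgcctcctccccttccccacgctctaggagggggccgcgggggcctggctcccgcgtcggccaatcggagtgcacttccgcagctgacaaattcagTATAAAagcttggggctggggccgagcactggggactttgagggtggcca
Dusp1: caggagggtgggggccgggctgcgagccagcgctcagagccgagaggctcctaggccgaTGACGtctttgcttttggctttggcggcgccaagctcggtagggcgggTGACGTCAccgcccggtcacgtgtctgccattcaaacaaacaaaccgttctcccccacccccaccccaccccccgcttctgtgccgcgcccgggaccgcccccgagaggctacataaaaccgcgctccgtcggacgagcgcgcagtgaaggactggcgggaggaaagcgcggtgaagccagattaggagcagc
The core TGACG, searched like the other motifs on both strands, lay in 5 of the 8 promoters (Fos, Fosb, Junb, Atf3 and Dusp1), and in 20.8% of all 32851 promoters of this length. In the Fos promoter it began 129 and 66 bases before the start, and in that of Junb 106 bases before it. The full element TGACGTCA, which contains the core on both strands, lay in the Dusp1 promoter 143 bases before the start, and in 1.79% of all promoters. TATAAA lay in the promoters of Fos, 33 bases before the start, and Junb (13.6% of all promoters). The Junb match begins at the RefSeq start, and the nearest GENCODE transcript start is 30 bases away from it. The EGR site GCGNGGGCG lay in the Fosb promoter alone (5.55% of all promoters). Neither the AP-1 site TGANTCA (7.81% of all promoters), the CArG box of serum response factor (1.63%) nor the heat shock element (0.603%), read as alternating GAA and TTC triplets set 2 bases apart, was found in these 8 windows. A missing match says only that these letters are not in the window. For Jund the RefSeq start lies 1210 bases from the nearest GENCODE transcript start, so its window may not be the promoter in use.

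Some of the transcripts, but not all, also share features that the choice of genes did not use. In the GENCODE vM21 annotation, 5 of the 10 genes (Jun, Junb, Jund, Ier2 and Hspa1a) have 1 exon in their longest protein-coding transcript, as have 6.77% of 21866 protein-coding genes. The pentamer ATTTA, the core of AU-rich elements that shorten the life of a transcript, occurred 5.80 times per 1000 bases in the 3′ UTR of Dusp1, a density reached by 5.13% of 19730 genes with a 3′ UTR of at least 100 bases. It occurred 4.91 times per 1000 bases in that of Fos (reached by 7.93% of genes) and 4.12 times in that of Junb (12.1%). Of the 10 genes, 7 were above the median density of all genes. Fosb, at 0.466 times per 1000 bases (reached by 66.5% of genes), was below it. Ier2 and Hspa1a had no ATTTA in their 3′ UTR, as 31.8% of genes. The 30-base windows with most ATTTA (capitals) in the 3′ UTRs of Fos (chr12:85477100-85477129, plus strand), Jun (chr4:95049207-95049236, minus strand) and Dusp1 (chr17:26506157-26506186, minus strand) are printed because overlapping copies, as in Fos and Dusp1, are the form that the decay factor tristetraprolin binds.
Fos: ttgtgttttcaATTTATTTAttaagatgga
Jun: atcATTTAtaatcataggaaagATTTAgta
Dusp1: agctggtccttATTTATTTAacacccccct

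Together the 10 genes held 42006 of the UMIs of the kept cells, or 4939 CPM (4892 to 4986), and 94.9% of cells had at least 1 of these UMIs. Fos was the most abundant at 1264 CPM, 122nd of 16216 detected genes. Junb followed at 1069 CPM, Jund at 795 CPM, Dusp1 at 540 CPM, Ier2 at 338 CPM, Atf3 at 278 CPM, Egr1 at 225 CPM, Jun at 223 CPM and Fosb at 192 CPM. Each captured molecule counts once whatever its length, so transcript length does not enter these levels. Read assignment can still differ between genes, as for Hspa1a below, so their order is approximate. Hspa1a stood apart at 14.6 CPM, with 124 UMIs in 84 cells and a rank of 6115. In these cells the group thus consisted of its transcription factors, Ier2 and Dusp1, with its heat shock member rarely counted.

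The combined level of clusters with at least 50 cells was highest, at 21777 CPM (21188 to 22377), in the 75 macrophage-like cells led by Gdf15 and Vcam1, which also carry Spic and Slc40a1, genes of iron-recycling macrophages. The other macrophage-like cluster, led by Ccl12 and Pf4 (291 cells), had 7597 CPM. Neutrophil-like cells led by Retnlg and Cstdc4 (241 cells) had 6348 CPM, monocyte-like cells led by Ace and Apoc2 (474 cells) 5786 CPM and conventional dendritic cell-like cells led by Cd209d and Cd209e (689 cells) 4768 CPM. T lineage-like cells led by Tnfrsf4 and Trac (93 cells) had 4346 CPM and NK and ILC-like cells led by Gzma and Nkg7 (297 cells) 4322 CPM. B lineage-like cells led by Cd79a and Ebf1 had 3663 CPM, the dividing cells led by Hist1h2ae and Birc5, which carry no class name, 3503 CPM, Ccl22/Fscn1 dendritic cell-like cells 3068 CPM and Rag1/Dntt thymocyte-like cells 2888 CPM. Neutrophil-like cells led by Ltf and Camp, genes of secondary granules made in immature neutrophils, were lowest at 1278 CPM (247 cells). A list of 10 cell cycle genes summed to 4085 CPM in the Hist1h2ae/Birc5 and 5267 CPM in the Rag1/Dntt cells. Expression of such genes was thus not particular to the cluster called dividing.

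**Figure D1:**
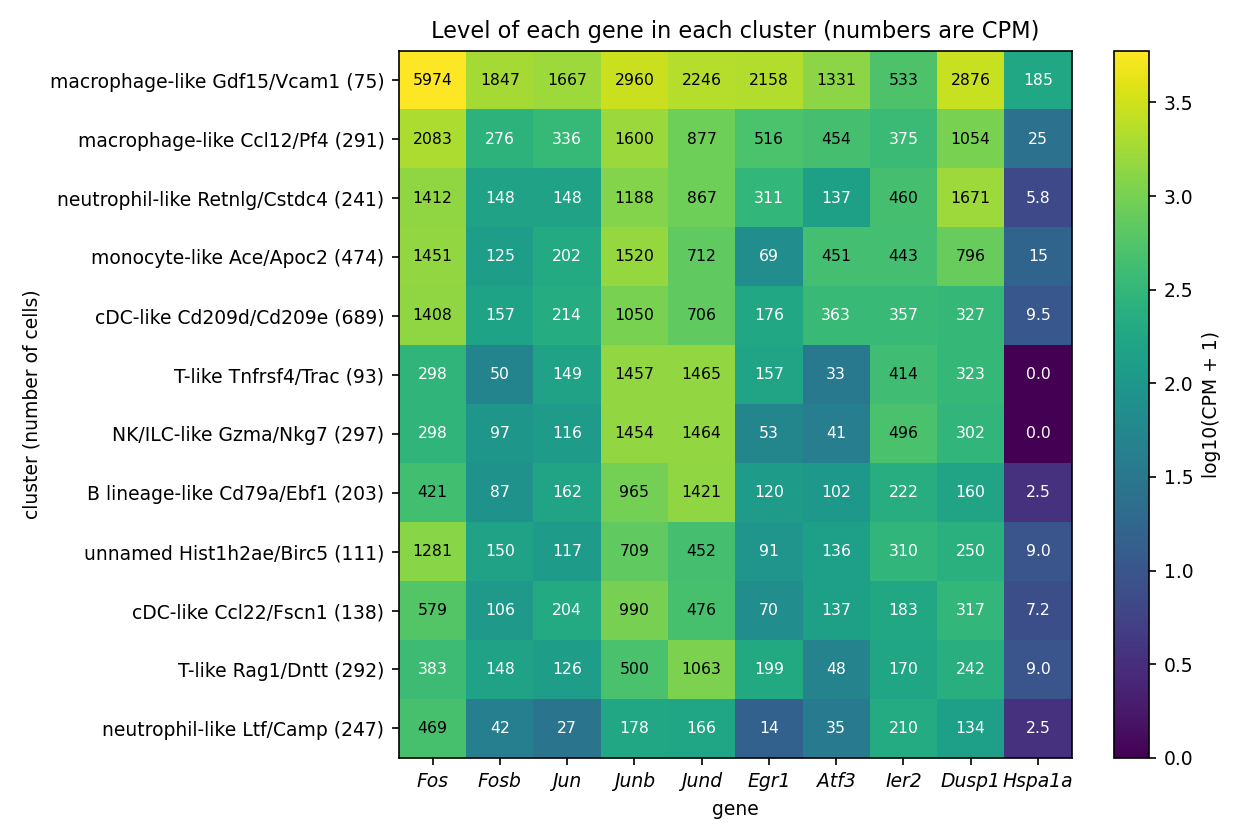
CPM of each of the 10 genes (columns) in each cluster of at least 50 cells (rows, ordered by combined level, with the number of cells); colour is log10(CPM + 1) and the printed numbers are CPM. The Gdf15/Vcam1 row is the highest in all 10 columns, and the Ltf/Camp row is the lowest in 6. No share over all genes stands beside these counts.

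Among the 12 clusters of at least 50 cells, which the statements on order and range below refer to, each of the 10 genes had its highest CPM in the Gdf15/Vcam1 cluster, and for 9 of them the interval did not overlap that of the second cluster. The exception was Ier2. No share over all genes stands beside these counts of places and intervals. A cluster of 11 mast cell and basophil-like cells, too small for this order, had a higher combined level of 29126 CPM. Against all other kept cells, 9 of the 10 genes were higher there by a log2 ratio of at least 1 (with 10 CPM added to both sides), beside 11.0% of 7292 genes with at least 10 CPM. Ier2, at 0.68 (0.41 to 0.94), was the exception again. In the Ltf/Camp cluster 9 of the 10 genes were lower by that amount, but so were 33.1% of all genes tested. The median log2 ratio over all genes was -0.66 in that comparison, and with it subtracted 7 of the 10 were lower and the split over all genes moved from 352 higher and 2416 lower to 854 higher and 819 lower. In the Gdf15/Vcam1 comparison, where the median was 0.11, 9 were higher also after subtraction, with 672 genes higher and 597 lower in place of 802 and 492. The neutrophil markers took 475934 CPM in the Ltf/Camp cluster and 374192 CPM in the Retnlg/Cstdc4 cluster, which leaves a smaller share for all other genes. With median-of-ratios scaling, which is less moved by a few abundant genes, levels rose by 0.73 on the log2 scale in the Ltf/Camp cluster and 0.71 in the Retnlg/Cstdc4 cluster. They fell by 0.34 in the Gdf15/Vcam1 cluster and by 0.52 in the Rag1/Dntt cluster. On that scale the Gdf15/Vcam1 cluster was still first in combined level, the Retnlg/Cstdc4 cluster moved up to the second place, and the Rag1/Dntt cluster took the last place from the Ltf/Camp cluster. Dusp1 and Ier2 were then highest in the Retnlg/Cstdc4 cluster, and the other 8 genes in the Gdf15/Vcam1 cluster.

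Fos encodes the partner that dimerises with Jun proteins to form the AP-1 transcription factor. Its level was 5974 CPM (5668 to 6293) in the Gdf15/Vcam1 cluster and 2083 CPM (1987 to 2182) in the Ccl12/Pf4 cluster. It lay between 1281 and 1451 CPM in the Ace/Apoc2 monocyte-like, Retnlg/Cstdc4 neutrophil-like, Cd209d/Cd209e dendritic cell-like and Hist1h2ae/Birc5 dividing clusters, whose neighbours in this order overlapped. Below them came Ccl22/Fscn1 dendritic cell-like cells at 579 CPM, Ltf/Camp neutrophil-like cells at 469 CPM and B lineage-like cells at 421 CPM. The Rag1/Dntt cells had 383 CPM, and the NK and ILC-like and Tnfrsf4/Trac cells 298 CPM each. Among these 12 clusters, each named myeloid cluster was above each lymphoid cluster in Fos, although the intervals of the Ltf/Camp and the B lineage-like cells overlapped. Of the 11 neighbouring pairs in the order, 8 had overlapping intervals.

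Fosb, a close relative of Fos, was more tightly tied to 1 cluster. It reached 1847 CPM in the Gdf15/Vcam1 cluster and 276 CPM in the Ccl12/Pf4 cluster, and between 42.3 and 157 CPM in the other 10. At an equal depth of 2000 UMIs per cell, 87.5% of the Gdf15/Vcam1 cells (42 of 48, exact binomial interval 74.8 to 95.3%) had a Fosb UMI. The share was 30.2% of 205 Ccl12/Pf4 cells. Unthinned, these shares were 90.7% and 33.0%. No cluster is known to lack the 10 genes, so a background share from free RNA was not set.

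Jun, the DNA-binding partner of Fos, followed the order of Fosb in its first places. It had 1667 CPM in the Gdf15/Vcam1 cluster, 336 CPM in the Ccl12/Pf4 cluster and 27.4 CPM in the Ltf/Camp cluster, a range of 60.9-fold. The other clusters lay between 116 and 214 CPM, with each overlapping its neighbours. Junb was broader. It was at 2960 CPM in the Gdf15/Vcam1 cluster, and at 1600, 1520, 1457 and 1454 CPM in the Ccl12/Pf4, Ace/Apoc2, Tnfrsf4/Trac and Gzma/Nkg7 clusters, each of which overlapped its neighbours among these 4. The Rag1/Dntt thymocyte-like cells, at 500 CPM (447 to 556), had less Junb than the Tnfrsf4/Trac T lineage-like cells.

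Jund, the Jun family member that many resting cells express steadily, had an order of its own. After the Gdf15/Vcam1 cluster at 2246 CPM (2060 to 2445), the next 4 places belonged to the 4 lymphoid clusters. They were Tnfrsf4/Trac at 1465 CPM, Gzma/Nkg7 at 1464 CPM, Cd79a/Ebf1 at 1421 CPM and Rag1/Dntt at 1063 CPM. The first 3 of these had overlapping intervals. The Ccl12/Pf4 and Retnlg/Cstdc4 clusters followed at 877 and 867 CPM. This order did not hold with median-of-ratios scaling. There the Retnlg/Cstdc4 cluster, at 1422, came between the Cd79a/Ebf1 cluster at 1432 and the Gzma/Nkg7 cluster at 1322. The Rag1/Dntt cluster, at 739, was then below the Ccl12/Pf4 cluster at 793. Jund made up 38.8% of the combined count in B lineage-like, 36.8% in Rag1/Dntt, 33.9% in NK and ILC-like and 33.7% in Tnfrsf4/Trac cells, and 10.3% in the Gdf15/Vcam1 cells. Fos, in turn, made up 6.90% of the combined count in NK and ILC-like cells and 27.4% in Gdf15/Vcam1 cells. Over the 12 clusters the log2 levels (CPM plus 10) of Fos and Jund had a Pearson correlation of 0.145, the lowest of the 45 gene pairs. All points of this correlation share 1 library, and 1 of them, the Gdf15/Vcam1 cluster, is far from the rest in most genes.

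Egr1, a zinc finger transcription factor downstream of ERK, had the widest range of the 9 genes detected in each of the 12 clusters, at 158-fold. It was at 2158 CPM in the Gdf15/Vcam1 cluster, 516 CPM in the Ccl12/Pf4 cluster, 311 CPM in the Retnlg/Cstdc4 cluster and 13.7 CPM in the Ltf/Camp cluster. The Ace/Apoc2 monocyte-like cells, which were among the higher clusters in Fos and Junb, had 69.5 CPM of Egr1, less than the Rag1/Dntt cells at 199 CPM (167 to 236). Atf3, a stress-induced repressor of the ATF family, was myeloid in its order. It was at 1331 CPM in the Gdf15/Vcam1 cluster, 454 CPM in the Ccl12/Pf4 cluster, 451 CPM in the Ace/Apoc2 cluster and 363 CPM in the Cd209d/Cd209e cluster. It lay between 33.1 and 47.9 CPM in the T lineage-like clusters and in NK and ILC-like cells. The Ltf/Camp cells, at 34.9 CPM, overlapped these lymphoid levels.

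Ier2, a short early response gene, varied least over the 12 clusters. Its highest level there was 533 CPM (444 to 634) in the Gdf15/Vcam1 cluster, its second 496 CPM (422 to 580) in NK and ILC-like cells and its lowest 170 CPM in Rag1/Dntt cells, a range of 3.13-fold. All 11 neighbouring pairs in its order had overlapping intervals. Dusp1, the phosphatase that shuts off p38 and JNK, was the one gene whose second cluster was neutrophil-like. It had 2876 CPM in the Gdf15/Vcam1 cluster, 1671 CPM (1537 to 1813) in the Retnlg/Cstdc4 cluster, 1054 CPM in the Ccl12/Pf4 cluster and 796 CPM in the Ace/Apoc2 cluster. The first 4 intervals did not overlap. Dusp1 was 26.3% of the combined count in the Retnlg/Cstdc4 cells, the largest share of any of the 10 genes there.

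Hspa1a encodes the inducible Hsp70 chaperone. Of its 124 UMIs, 44 lay in the 75 Gdf15/Vcam1 cells, at 185 CPM (134 to 248), with 22 of these cells carrying at least 1. The Ccl12/Pf4 cluster had 24.7 CPM (15.3 to 37.8) from 21 UMIs, and the Ace/Apoc2 cluster 15.4 CPM from 16 UMIs. It was not detected in NK and ILC-like or Tnfrsf4/Trac cells, where a count of 0 allows up to 9.42 and 24.8 CPM (3 UMIs per cluster). The near-identical gene Hspa1b, whose promoter differs from that of Hspa1a at 4 of 300 bases, had 29.4 CPM in the Gdf15/Vcam1 cluster from 7 UMIs. Of the 91-base windows of the Hspa1b transcript, 1412 of 2713 are also in Hspa1a, but 0 of the 553 in its 3′ UTR, the end that this assay reads. Reads from the shared parts cannot be assigned to 1 gene, so both values may be too low where reads lie outside the 3′ UTR. In the other clusters Hspa1a was too sparse for an order.

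The first close comparison is between the 2 macrophage-like clusters, which share a class name. The combined level was 2.87-fold higher in the Gdf15/Vcam1 than in the Ccl12/Pf4 cluster, a log2 ratio of 1.52 (1.47 to 1.57). Of the 10 genes, 8 were higher by a log2 ratio of at least 1, beside 10.7% of 7550 genes tested, and none was lower, beside 4.98%. The largest ratios were those of Hspa1a, at 2.90 (2.12 to 3.73), Fosb, at 2.74 (2.51 to 2.98), Jun, at 2.31 (2.09 to 2.53), and Egr1, at 2.06 (1.88 to 2.25). Atf3, Fos, Dusp1 and Jund lay between 1.36 and 1.55. Junb, at 0.89 (0.75 to 1.02), and Ier2, at 0.51 (0.20 to 0.81), did not reach 1. The median over the 10 genes was 1.52 and over all genes 0.15. With median-of-ratios scaling the same number of members, 8, passed, while the split over all genes moved from 806 higher and 376 lower to 500 higher and 439 lower.

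Other values moved with this difference. The 12 neutrophil markers summed to 14295 CPM in the Gdf15/Vcam1 cluster, where all but Elane and Mpo had UMIs, and to 459 CPM in the Ccl12/Pf4 cluster, where each had UMIs. S100a8 stood at 5617 CPM and S100a9 at 6260 CPM in the Gdf15/Vcam1 cluster. Over all cells of a cluster, the combined level of the 10 genes was 6348 CPM in Retnlg/Cstdc4, 1278 CPM in Ltf/Camp and 21777 CPM in Gdf15/Vcam1 cells. It varied with depth within these clusters. In equal groups of cells ranked by depth, it went from 3690 to 14078 CPM in the Retnlg/Cstdc4 cluster. In the Gdf15/Vcam1 cluster it went from 14384 to 34342 CPM. The macrophage markers summed to 17528 CPM in the Gdf15/Vcam1 and 8476 CPM in the Ccl12/Pf4 cluster, and 13 and 14 of the 14 had UMIs. The 12 T lineage markers summed to 143 CPM in the Gdf15/Vcam1 cells, with Cd3d, Cd3g, Rag2, Bcl11b and Themis at 0, and to 142 CPM in the Ccl12/Pf4 cells. Median depth was 2386 and 2533 UMIs and the median mitochondrial share 0.849% and 0.768%. The part of the neutrophil markers in the difference was not tested.

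**Figure D2:**
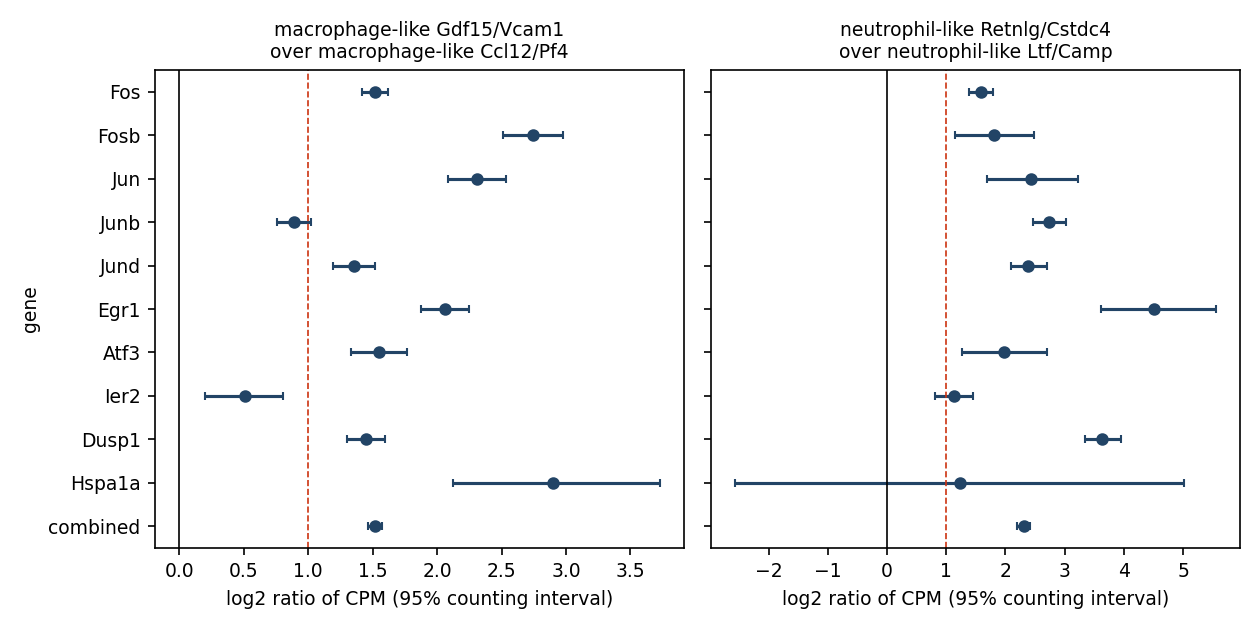
Log2 ratio of CPM for each gene and for the 10 genes combined, between the 2 macrophage-like clusters (left) and between the 2 large neutrophil-like clusters (right), with exact 95% counting intervals; the solid line is equality and the dashed line a log2 ratio of 1. On the left 8 of 10 genes lie past the dashed line, and on the right the interval of Hspa1a spans 0 because it rests on 4 UMIs.

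The second close comparison is between the neutrophil-like cells led by Retnlg and Cstdc4, genes of mature neutrophils, and those led by Ltf and Camp. The combined level was 4.97-fold higher in the Retnlg/Cstdc4 cluster, a log2 ratio of 2.31 (2.20 to 2.42). Of the 9 genes with enough counts, 9 were higher by a log2 ratio of at least 1, beside 11.2% of 5402 genes tested, and none was lower, beside 10.2%. Egr1 had the largest ratio, at 4.51 (3.61 to 5.55), from 311 against 13.7 CPM. Dusp1 was next at 3.64 (3.34 to 3.95), from 1671 against 134 CPM. Junb stood at 2.74, Jun at 2.44, Jund at 2.39, Atf3 at 1.97, Fosb at 1.81, Fos at 1.59 and Ier2 at 1.13. Hspa1a had 2 UMIs in each cluster and was not compared.

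Depth touches this second difference. Median depth was 1221 UMIs in the Retnlg/Cstdc4 and 2546 in the Ltf/Camp cluster, and 196 of the 241 Retnlg/Cstdc4 cells had too few UMIs to be thinned to 2000. In the cells that were deep enough, the log2 ratio of the combined level fell from 2.31 to 1.23, and at 1000 UMIs it was 1.93. The members past the fold went from 9 to 5 at 2000 UMIs and to 8 at 1000 UMIs. Over all genes, 604 were higher by that fold without thinning, 523 at 2000 UMIs and 604 at 1000 UMIs. These are counts, as the number of genes tested at each depth is not given. At 2000 UMIs Fos was at 0.68 (0.23 to 1.11), Jun at 0.92 (-1.01 to 2.65) and Ier2 at 0.18 (-0.53 to 0.85). The direction of the combined level held, while its size depended on which cells entered. Within the Retnlg/Cstdc4 cluster the combined level was read in 3 equal groups of cells ranked by depth. It was 14078 CPM in the shallowest group (median 701 UMIs), 6929 CPM in the middle group and 3690 CPM in the deepest group (median 2126 UMIs). In the Ltf/Camp cluster the same groups had 2005, 1549 and 1011 CPM. The mitochondrial share had medians of 0.113% and 0.330%, against 0.693% to 1.45% in the other clusters of at least 50 cells. As it differs between clusters, it is not read here as a measure of damage. In the deepest groups alone, the log2 ratio was 1.87 for the neutrophil-like pair, with 6 members past the fold and 718 genes higher. For the macrophage-like pair it was 0.98, with 5 members in place of 8 and 673 genes higher in place of 806. At an equal depth of 2000 or 1000 UMIs, 8 members were past the fold in the macrophage-like pair. Over all genes, 1126 and 1517 were higher in that pair at these depths. The part of depth in either difference was not tested.

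**Figure D3:**
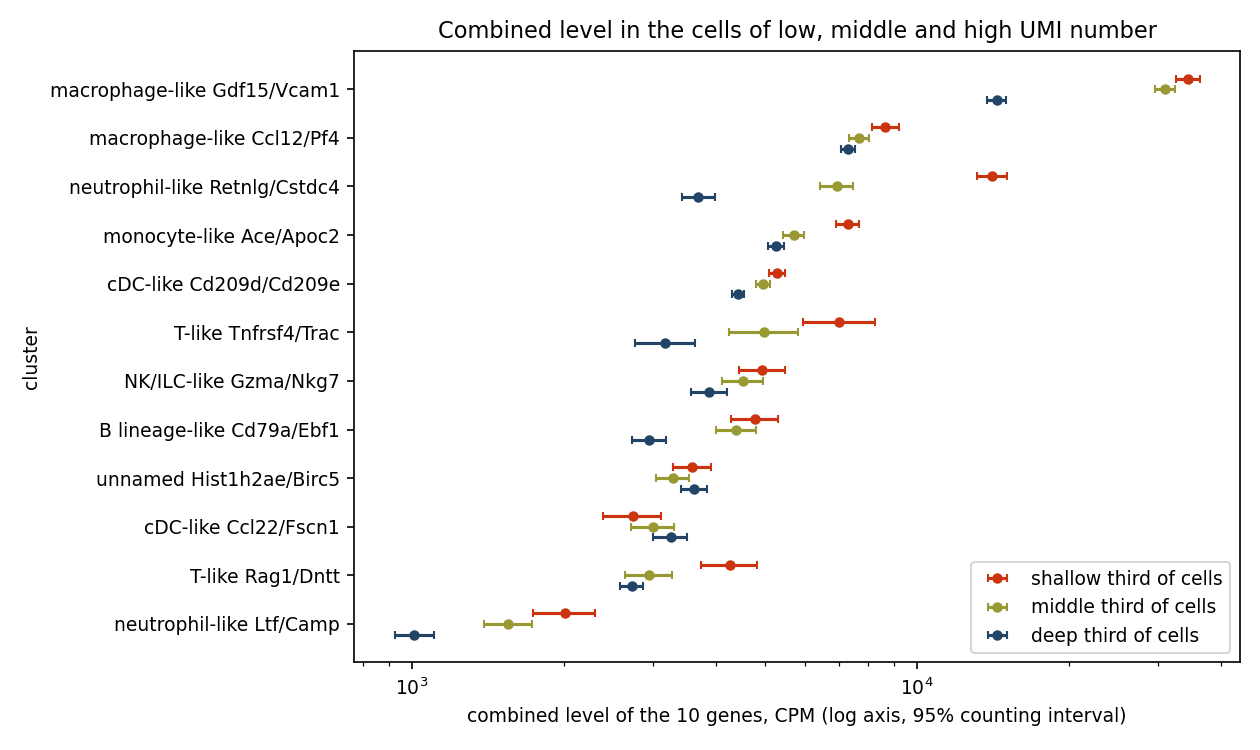
Combined level of the 10 genes (CPM, log axis, with 95% counting intervals) in 3 equal groups of the cells of each cluster, ranked by UMIs per cell (shallow, middle, deep). The shallow group is highest in 10 of the 12 clusters, with the widest spread in the Retnlg/Cstdc4 and Gdf15/Vcam1 clusters.

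The same fall was seen in most clusters. In the Gdf15/Vcam1 cluster the shallowest, middle and deepest groups had 34342, 30988 and 14384 CPM. The lowest of these, with an interval of 13762 to 15027, overlapped the shallowest Retnlg/Cstdc4 group and was above the groups of the other 10 clusters. In the Ccl12/Pf4 cluster they had 8648, 7666 and 7297 CPM. Ccl22/Fscn1 dendritic cell-like cells went the other way, with 2732, 3001 and 3249 CPM, where neighbouring intervals overlapped. Ranked by mitochondrial share instead, the Gdf15/Vcam1 groups had 25167 CPM at the lowest, 19866 CPM in the middle and 19900 CPM at the highest share. The Retnlg/Cstdc4 groups had 9153, 5471 and 5390 CPM, so in both clusters the level was highest at the lowest share. The Ltf/Camp groups went the other way, with 1038, 1120 and 1699 CPM. Depth differed between these groups too. From the lowest to the highest share, median UMIs were 2097, 2328 and 2617 in the Gdf15/Vcam1 cluster. They were 900, 1363.5 and 1630.5 in the Retnlg/Cstdc4 cluster and 2734, 2943.5 and 2102 in the Ltf/Camp cluster. In each of these clusters the group with the highest level was also the shallowest. The part of depth in this ranking was not tested.

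At an equal depth of 2000 UMIs per cell, the Gdf15/Vcam1 cells carried a median of 35 UMIs of the 10 genes (quartiles 24.8 and 57, highest 167), from a median of 8 of the 10 genes. None of these 48 cells was without any. Ccl12/Pf4 cells carried a median of 13 UMIs from 5 genes, Ace/Apoc2 cells 10 UMIs from 5 genes and Cd209d/Cd209e cells 8 UMIs from 4 genes. Ltf/Camp cells carried a median of 1 UMI, and 26.8% of them had none. The Fano factor (variance over mean, which is 1 for pure counting noise) was 29.2 in Gdf15/Vcam1 cells, 8.16 in Ccl12/Pf4 cells, 8.83 in Rag1/Dntt cells and 2.31 in B lineage-like cells. It grows with the mean, which was 47.1 UMIs in the first and 6.09 in the last of these clusters, so the factors do not rank the clusters by how unlike their cells are. In the Rag1/Dntt cluster the highest 10% of cells held 40.3% of the combined UMIs. NK and ILC-like and Tnfrsf4/Trac cells are left aside here, as only 8 and 13 of them were deep enough.

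**Figure D4:**
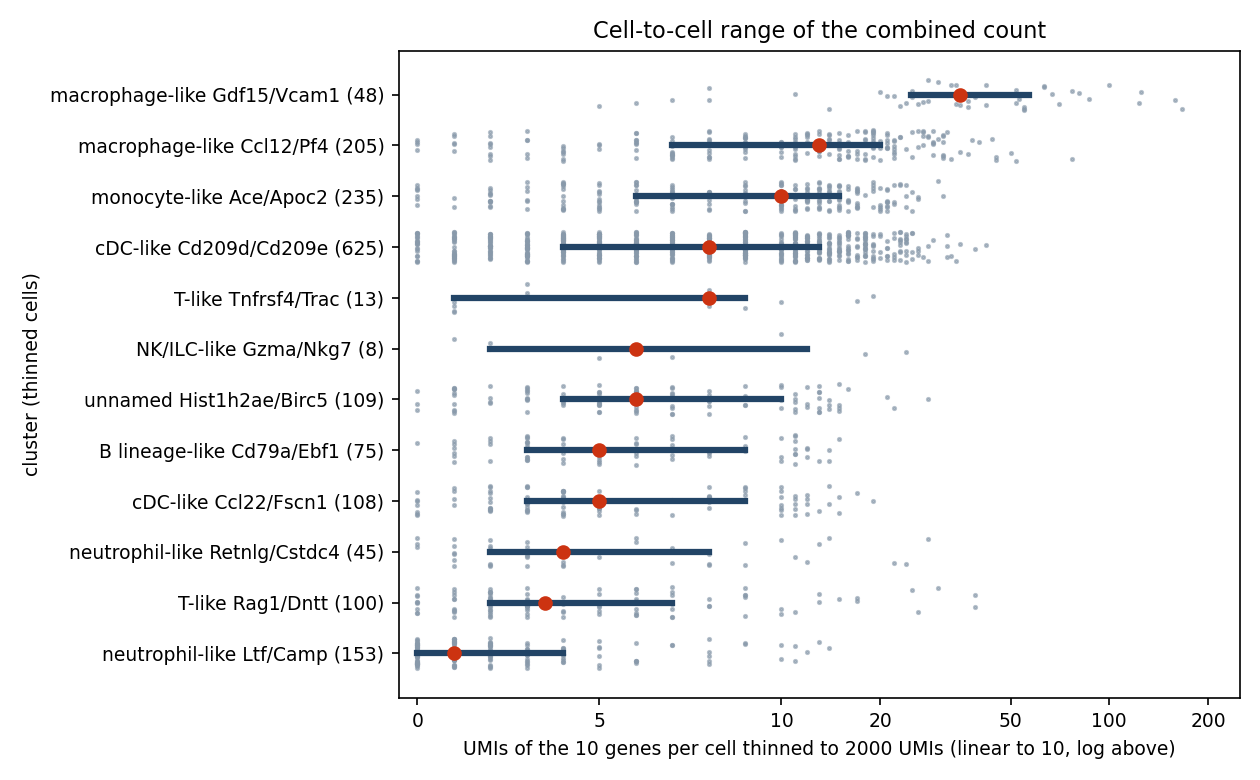
UMIs of the 10 genes in each cell after thinning to 2000 UMIs (points; axis linear to 10 and logarithmic above), with the median (large point) and quartiles (bar) of each cluster, the number of thinned cells in brackets. The median is 35 UMIs in Gdf15/Vcam1 cells, 13 in Ccl12/Pf4 cells and 1 in Ltf/Camp cells.

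Within clusters, pairs of the 10 genes were counted in the same cells. For each of the 45 pairs, the number of thinned cells with both genes was set against the number expected if the genes were independent within each cluster. The ratio was above 1 in all 45 pairs, the exact interval was above 1 in 26 and below 1 in none, and the median was 1.14. Pairs of other genes were not read in this way, so no background stands beside these counts. Fosb and Egr1 were highest, with 150 cells against 97.7 expected, a ratio of 1.54 (1.30 to 1.80). Egr1 and Dusp1 followed at 1.36 (1.19 to 1.55), Jun and Egr1 at 1.34, Fosb and Jun at 1.33 and Jun and Atf3 at 1.33. At the low end, Jund had ratios of 1.04 with Ier2, 1.05 with Junb and 1.05 with Fos. The intervals of these 3 pairs included 1, as did that of Junb with Hspa1a at 1.04. The ratio cannot rise far above 1 where both genes are widely detected, so it does not rank pairs by strength. For Fos and Jund 790 cells were expected. The correlation of each gene with the other 9 over 1746 thinned cells, with class means subtracted, was 0.471 for Fos, 0.467 for Junb, 0.414 for Dusp1, 0.349 for Atf3 and 0.342 for Egr1. It was 0.318 for Jund, 0.303 for Jun, 0.287 for Fosb, 0.242 for Ier2 and 0.102 for Hspa1a. A class can hold more than 1 cluster, so differences between the clusters of a class remain in these correlations. These cells share 1 library, and the values are descriptions.

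**Figure D5:**
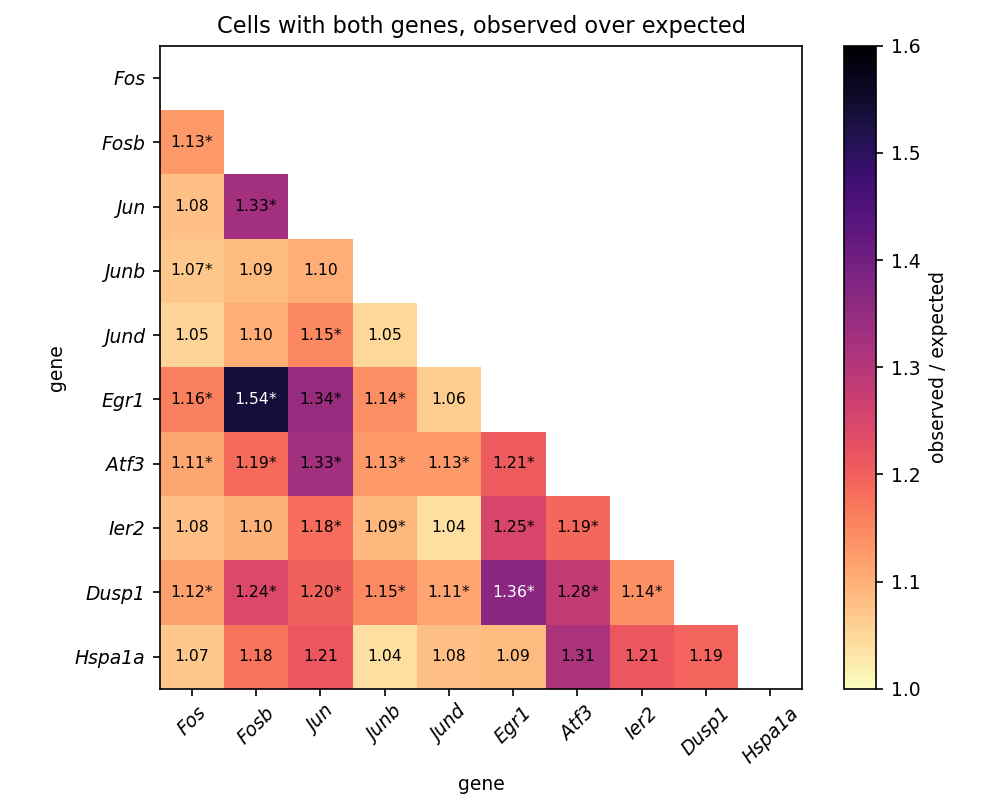
Cells with both genes of a pair over the number expected from independence within clusters, at 2000 UMIs per cell; a star marks pairs whose exact 95% interval lies above 1. All 45 ratios are above 1 and 26 carry a star, with Fosb and Egr1 highest at 1.54.

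The genes whose cell-to-cell pattern was most like the combined count were sought among 4059 genes with a mean of at least 0.05 UMIs per thinned cell, over 1637 cells of the named classes with class means subtracted. Zfp36, which encodes the ATTTA-binding decay factor tristetraprolin, stood first with a Pearson correlation of 0.487. Il1b, the gene of a cytokine that starts inflammation, followed at 0.307, and Klf2, a zinc finger factor, took the third place. Mcl1, Btg2, Ppp1r15a, Ier3, Rhob, Nfkbia and Nr4a1 lay between 0.234 and 0.256. With cluster means subtracted in place of class means, Zfp36 was first at 0.468 and Il1b second, while Klf2 went to place 4, Mcl1 to 9, Btg2 to 14 and Nr4a1 to 13. Rhob went from place 8 to 35, at 0.149. The lowest values were those of Ppia (-0.224), Hmgn2 (-0.204), Stmn1 (-0.173), Camp (-0.163) and Hmgb2 (-0.162). The value of Camp, a neutrophil granule gene, went to 0.00429 when neutrophil-like cells were left out. Depth was equal by thinning, but the base number of UMIs of a cell before thinning was not held fixed.

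Related genes were read from 9 lists, described by counts and by medians (log2 ratios with 10 CPM added) beside all genes, whose medians were 0.15 in the macrophage-like and 0.02 in the neutrophil-like pair. Of all genes tested, 10.7% were higher and 4.98% lower in the macrophage-like pair. In the neutrophil-like pair these shares were 11.2% and 10.2%. The list counts below are to be read beside these shares. Of the 20 other immediate early genes, 17 could be compared between the macrophage-like clusters and 9 were higher in the Gdf15/Vcam1 cluster, with a median log2 ratio of 1.01. Between the neutrophil-like clusters 9 of 13 were higher in the Retnlg/Cstdc4 cells, with a median of 1.72. None was lower in either. Zfp36 was at 3040 against 1447 CPM in the macrophage-like pair and 1048 against 215 CPM in the neutrophil-like pair. Klf2 was at 2301 against 379 CPM and 969 against 293 CPM. Klf6, at 1297 against 376 CPM and 309 against 156 CPM, passed the fold in the macrophage-like pair. Mcl1, at 1113 against 561 CPM and 1059 against 233 CPM, passed it in the neutrophil-like pair.

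NF-κB targets and cytokine feedback genes separated the 2 comparisons. In the neutrophil-like pair 11 of 13 were higher in the Retnlg/Cstdc4 cells (median 1.95), where Cxcl2 had 1487 against 27.4 CPM, Il1b 3050 against 108 CPM, Ccl4 672 against 17.4 CPM and Nfkbia 454 against 113 CPM. In the macrophage-like pair none of 13 was higher and 1 was lower (median -0.43). Cxcl2, a chemokine for neutrophils, was that gene, with 88.2 CPM in the Gdf15/Vcam1 and 774 CPM in the Ccl12/Pf4 cluster. Il1b was at 546 against 882 CPM there, Ccl4 at 479 against 647 CPM and Nfkbia at 793 against 594 CPM. This contrast between the pairs has no replicate and was not tested.

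Among MAP kinase phosphatases and feedback inhibitors, which act on the same kinases as Dusp1, 2 of 5 were higher in the Gdf15/Vcam1 than in the Ccl12/Pf4 cluster and 1 of 3 in the Retnlg/Cstdc4 than in the Ltf/Camp cluster. The former were Dusp6, an ERK phosphatase, at 554 against 207 CPM, and Spred1, an inhibitor of the Ras pathway, at 75.6 against 24.7 CPM. The latter was Dusp5, at 81.5 against 12.4 CPM. Dusp2, at 92.4 against 135 CPM in the first pair, had an interval that included equality. Spry2 had 29.4 against 3.53 CPM from 7 and 3 UMIs.

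The heat shock and chaperone list did not move with the 10 genes by its median, though single genes did. In the macrophage-like pair 3 of 14 were higher, beside 10.7% of all genes, and none lower, with a median of -0.02. The 3 were Dnajb1 (176 against 44.7 CPM), Dnajb4 (42.0 against 9.41 CPM) and Hspa1b, co-chaperones and a chaperone of the Hsp70 system. Hspa1b rests on 7 against 8 UMIs, with an interval that includes equality. In the neutrophil-like pair none of 9 passed the fold. Hspa8, the constitutive Hsp70, was at 1188 against 1456 CPM in the macrophage-like pair, Hsp90ab1 at 928 against 955 CPM, Hspe1 at 437 against 539 CPM and Hsp90aa1 at 252 against 205 CPM. Endoplasmic reticulum stress genes were likewise near the level of all genes in the macrophage-like pair, with 0 of 9 past the fold in either direction and Hspa5 at 814 against 627 CPM. In the neutrophil-like pair Ddit3 (69.9 against 7.47 CPM) and Dnajb9 were higher and Hsp90b1 (32.0 against 162 CPM) was lower, of 8 compared. Of the cold-inducible genes, Cirbp passed the fold in the macrophage-like pair, at 164 against 61.2 CPM, and Rbm3, at 298 against 329 CPM, did not. Neither passed it in the neutrophil-like pair.

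Of the other AP-1 family and partner genes, 4 of 11 were higher in the Gdf15/Vcam1 than in the Ccl12/Pf4 cluster, beside 10.7% of all genes. In the Retnlg/Cstdc4 against the Ltf/Camp cluster 1 of 9 was higher, near the 11.2% of all genes. Cebpb, a factor of myeloid cells, was at 1074 against 357 CPM in the second pair. Atf4 was at 218 against 134 CPM and Batf3 at 88.2 against 114 CPM in the first. The kinases and factors that act upstream of the 10 genes were not higher with them: 0 of 12 were higher and 2 lower in the macrophage-like pair (Elk3 and, from 1 against 19 UMIs with an interval that includes equality, Mapk9), and 0 of 7 passed the fold in the neutrophil-like pair. The kinase genes Mapk3 (67.2 against 84.7 CPM) and Mapk14 (71.4 against 83.5 CPM) and the coactivator gene Mrtfa (54.6 against 29.4 CPM) had intervals that included equality between the macrophage-like clusters. Of the cell cycle genes, 10 of 10 were lower in the Retnlg/Cstdc4 than in the Ltf/Camp cells, with Stmn1 at 17.5 against 311 CPM and Top2a at 2.91 against 204 CPM. Ube2c and Birc5 had 0 UMIs in the Retnlg/Cstdc4 cells.

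The genes lie at separate places of the genome (GENCODE vM21 on GRCm38, the assembly that the submitters' processing notes name as mm10). Jun (chr4:95049034-95052222), Junb (chr8:84974484-84978718), Jund (chr8:70698949-70700616), Atf3 (chr1:191170296-191218039), Dusp1 (chr17:26505590-26562128) and Hspa1a (chr17:34969190-34972156) overlap an annotated gene on the opposite strand. For Junb that gene is Prdx2. The labels do not state the strand setting of the counting, and reads of such partners cannot be told apart if strand was not used. Dusp1 also overlaps 2 annotated genes on its own strand, where strand would not help. Fos (chr12:85473890-85477273), Fosb (chr7:19302696-19310051) and Ier2 (chr8:84661331-84662852) overlap none.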

How the data were processed

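Single-cell RNA was measured in 2 libraries of CD64-sorted thymus cells of adult mice, 1 group. The deposited files hold raw UMI counts for each gene and barcode, made with Cell Ranger 6.0.0 (2021) and 8.0.0 (2024), per the file headers. The assembly mm10 is named in the submitters' processing notes. No further step is given in the sources used here. The 2021 library held 8534578 UMIs in 3214 barcodes and the 2024 library 24569270 in 2815. Barcodes are those that the authors had selected, with at least 502 UMIs in 2021.

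Cells were filtered as given above. Scrublet in scanpy 1.11.5 (expected rate 6%) called 3 doublets at a threshold of 0.519, far below that rate. Counts were scaled to 10000, log-transformed and reduced to 2000 variable genes and 30 components, without 55 early response, phosphatase and heat shock genes. Leiden clustering (igraph 0.11.9) used 15 neighbours at resolution 0.5. Clusters were named where 3 or more markers of 1 of 14 class lists were raised. Gene ratios between clusters had 10 CPM added to both sides for calls (log2 ratio of at least 1, at least 10 CPM), and printed ratios are of the plain CPM with exact conditional intervals. A gene at 0 UMIs is given the limit of 3 counts. Thinning drew 2000 UMIs per cell. Pairs of genes were compared within clusters in place of the planned classes, which are wider. Cells are not replicates, and with 1 named library no p-value was computed. Python 3.11.15, numpy 2.4.6, scipy 1.17.1, pandas 2.3.3 and matplotlib 3.10.9 were used, and the ratio, likeness and thinning steps were tested on simulated data. PCR duplicates are removed by the UMI, so intervals cover counting error only.

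The 10 genes, the 9 lists and the comparisons were chosen with earlier results of these data known. Named genes are all 10 members, the 4 most abundant genes of each list, and the 10 highest and 5 lowest genes of the likeness order. Some genes under this rule are not reported here. Alternatives changed the cell filter, doublets, clustering, scaling, added CPM, thinning and the cells of each cluster.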

Additional observations from a re-analysis of the deposited data

How the results depend on the processing

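No paired analysis was possible because the labels give 1 group and only 1 library has gene names. The Gdf15/Vcam1 cluster held the first place in combined level in each alternative that gave a place. The log2 ratio of the macrophage-like pair, 1.52, was 1.37 with the stricter cell filter, 1.65 without the 6% of cells with the highest doublet scores, 1.33 with median-of-ratios scaling, 1.65 in cells thinned to 2000 UMIs, 1.74 at 1000 UMIs and 0.98 in the deepest group of cells. That of the neutrophil-like pair, 2.31, was 2.59 without the high doublet scores, 1.23 at 2000 UMIs, 1.93 at 1000 UMIs and 1.87 in the deepest group. Thinning of the pairs, the deepest groups and the subtraction of the median were added after seeing the data. The combined level over all cells, 4939 CPM, was 4839 CPM with the stricter filter, 4877 CPM without the high doublet scores and 5349 CPM at 1000 UMIs. Counts over all genes moved too. With median-of-ratios scaling, 500 genes were higher in the macrophage-like pair and 953 lower in the neutrophil-like pair. With 1 CPM added, 1337 were higher and 692 lower in the first and 949 lower in the second. Against all other cells, 819 genes and 7 members were lower in the Ltf/Camp cluster with the median over all genes subtracted. The numbers of members past the fold in the pairs, 8 and 9, were the same with the cell filter, doublet, clustering, scaling and added CPM alternatives that gave them. At 2000 UMIs the neutrophil-like pair had 5, at 1000 UMIs 8 and in the deepest group 6, and the macrophage-like pair had 5 in the deepest group. At 2000 UMIs, 1126 genes were higher and 792 lower in the macrophage-like pair, and 523 higher and 1231 lower in the neutrophil-like pair. At 1000 UMIs these counts were 1517, 1077, 604 and 909. In the deepest group they were 673, 590, 718 and 851. Of 200 log2 ratios of single members in the pairs, 200 kept their sign, but the alternatives reuse many of the same cells. Some of the intervals included 0. At 2000 UMIs these included Fosb in the neutrophil-like pair, at 1.11 (-0.49 to 2.61), and Ier2 in the macrophage-like pair, at 0.47 (-0.02 to 0.94). The likeness of Camp reversed to 0.00429 without neutrophil-like cells. The causes were not tested. With the stricter filter no cluster was left for the Retnlg/Cstdc4 cells, so that pair has no value there. Tnfrsf4/Trac cells had none in 3 alternatives. Hspa1a is limited by depth.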

Other observations

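The remaining 3 clusters held fewer than 50 cells and entered no comparison. In 11 mast cell and basophil-like cells, led by Ifitm1 and Ccl3 and carrying Mcpt8, Cpa3, Ms4a2, Fcer1a, Gata2 and Prss34, the 10 genes summed to 29126 CPM (26068 to 32445), from 330 UMIs. This was above the 21777 CPM of the Gdf15/Vcam1 cluster. Junb was at 6620 CPM (5207 to 8298), Jund at 5737 CPM, Ier2 at 4325 CPM, Dusp1 at 3266 CPM and Jun at 2913 CPM. Each of Junb, Jund, Ier2 and Dusp1 had a UMI in 11 of the 11 cells. Egr1 made up 8.48% and Fosb 6.36% of the combined count in these cells. In the Gdf15/Vcam1 cells, at a lower combined level, these shares were 9.91% and 8.48%. Fos was at 1942 CPM in 7 cells, and Atf3 and Hspa1a had no UMI, which allows up to 265 CPM (3 UMIs per cluster). The median depth of these cells was 980 UMIs.

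In 13 neutrophil-like cells led by Elane and Prtn3, genes of granule proteins made early in neutrophil development, the combined level was 972 CPM. In 10 B lineage and plasma-like cells led by Ighg2c and Jchain it was 2973 CPM, of which Jund made up 40.8% and Fos 33.3%.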
